A study of Homo sapiens with 14 samples.

Results

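AAGAB, the kinase gene AAK1 and 8 genes for large and medium subunits of the clathrin adaptor complexes AP-1, AP-2 and AP-3 were followed across HEK293T cells that had received a control siRNA or one of 2 forms of miR-34a. The genes were AAGAB, AAK1, AP1B1, AP1G1, AP2A1, AP2B1, AP2M1, AP3B1, AP3B2 and AP3D1, chosen by symbol from the 63140 genes of the count table, and all 10 were among the 18321 genes with enough counts to be tested. AAGAB and AP3B2 were picked because their counts were low with the microRNA duplexes, so their levels against control are given as a description with no test. The other 8 were picked by family.

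All libraries came from HEK293T, an established line from human embryonic kidney that expresses SV40 large T antigen, and were taken 24 h after transfection. The 5 control libraries had received AllStars, a purchased siRNA meant to have no target. The unmodified miR-34a duplex was given in the miR-34a-WT group (n = 5). The miR-34a-RS group (n = 4, replicates 1, 2, 3 and 5) received the duplex in which guide residues 13 and 14 were rSpacer, a residue with a backbone but no base. The comparison of the duplexes asks what pairing outside the seed (guide positions 2 to 8) adds to targeting. The labels do not say whether replicates were separate cultures, and the spread that the p-values measure may therefore be technical.

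The adaptor protein complexes AP-1 and AP-2 link cargo receptors to the clathrin coat. Each adaptor complex is built of 2 large subunits, a medium mu subunit and a small sigma subunit. AP-1 works between the trans-Golgi network and endosomes, AP-2 at the plasma membrane in endocytosis, and AP-3 on the route to lysosomes and related organelles. AAGAB, also called p34, binds the alpha and gamma adaptins and acts as a chaperone in the assembly of AP-2 and AP-1, and loss of 1 copy causes punctate palmoplantar keratoderma. A microRNA lowers its targets mainly through pairing of its seed with the 3′ UTR.

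Seed matches of the members were searched as a description, and their part in the changes was not tested. The guide is shown first with its seed in capitals and then with the residues that were abasic in miR-34a-RS in capitals, from RefSeq with GRCh38.p14. The windows below it are 30 bases of transcript sequence from GENCODE 29 (GRCh38), written 5′ to 3′, with the seed match in capitals, and they show the 8mer and 7mer-m8 matches found in the transcript with the longest 3′ UTR or reading frame of each member.
miR-34a-5p, seed: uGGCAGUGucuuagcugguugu
miR-34a-5p, positions 13 and 14: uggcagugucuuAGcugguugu
AAGAB, 3′ UTR, 8mer, chr15:67201923-67201952, minus strand: ctctttaaagccaaagagagatCACTGCCA
AP1B1, 3′ UTR, 8mer, chr22:29328426-29328455, minus strand: cggttggtgttaaagggccctcCACTGCCA
AP1B1, 3′ UTR, 7mer-m8, chr22:29328085-29328114, minus strand: ccacttctgccccaagggtggtCACTGCCt
AP3B2, coding sequence, 8mer, chr15:82659885-82659914, minus strand: ttgtggtgcagaaagtgactgcCACTGCCA
AP1G1, coding sequence, 8mer, chr16:71748288-71748317, minus strand: ctgtgacacgaggttatgccctCACTGCCA
AAK1, coding sequence, 7mer-m8, chr2:69530013-69530042, minus strand: ttctcgatattctcaagacatgCACTGCCt

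An 8mer (CACTGCCA) pairs with guide positions 2 to 8 and has an A opposite position 1, a 7mer-m8 (CACTGCC) lacks that A, a 7mer-A1 (ACTGCCA) lacks the pair at position 8, and a 6mer (ACTGCC) lacks both. Only transcript strands were searched, and each match was put in its longest class. In the longest annotated 3′ UTR, AAGAB had one 8mer in 1788 bases, AP1B1 an 8mer and a 7mer-m8 in 1139 bases, and AP1G1 one 6mer in 4058 bases. The other 7 members had none of these words in that 3′ UTR. With every coding transcript searched, AAK1 was added, with a 7mer-m8 in 1 of 5 transcripts. An 8mer was the best 3′ UTR match of 6.03% of the 13608 tested genes with a 3′ UTR, a 7mer-m8 of 11.7%, and 64.9% had no match.

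AP3B2 carried its 8mer in the coding sequence, at base 3180 of the 3378 bases of its longest reading frame, overlapping a 7mer-A1 at base 3175. The 8mer was in 7 of 16 annotated AP3B2 transcripts. The 3′ UTR of 3342 bases searched for AP3B2 belongs to a transcript with a reading frame of only 426 bases, and the transcript with the longest frame has a 3′ UTR of 279 bases, also without a match. Upstream of these matches no window held AGCT, the word that pairs with guide positions 13 to 16, at a distance of 1 to 15 bases from the seed match, counted between the bases opposite guide positions 8 and 13. Of the 13608 tested genes with a 3′ UTR, 1.64% had AGCT so placed beside an 8mer or 7mer-m8 in the 3′ UTR. The absence of this word says nothing of weaker or wobble pairing.

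Total counts per library were 22242203 to 36255297, and mitochondrially encoded genes took 2.19% to 3.30% of them. All 5 genes searched as markers of the HEK293 lineage (NEFL, NEFM, ENO2, PAX2 and VIM) were detected. Their summed level was 384 to 413 CPM (a gene's counts relative to the library size scaled by TMM) in control, 333 to 388 with miR-34a-WT and 338 to 370 with miR-34a-RS. The sum does not show which of these genes made it up, and they need not be particular to that lineage. Of 8 fibroblast markers 5 were tested, at a summed 47.2 to 58.6 CPM in control, 43.1 to 48.3 with miR-34a-WT and 44.9 to 49.7 with miR-34a-RS, with COL1A2 at 0, and 6 blood markers summed to at most 1.05 CPM in any library. Their part in the results was not tested. In bulk RNA, fewer cells of a type and less RNA per cell cannot be told apart.

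Levels per length, in CPM per kilobase of merged exons, put the members in this order in control: AP2M1 (59.8 ± 2.1), AP2B1 (48.0 ± 1.3), AP3D1 (44.6 ± 2.7), AP1B1 (42.1 ± 2.9), AAGAB (37.5 ± 1.4), AP1G1 (19.3 ± 1.0), AP2A1 (16.8 ± 1.6), AP3B1 (13.4 ± 0.4), AAK1 (2.11 ± 0.12) and AP3B2 (1.004 ± 0.090; each mean ± SD, n = 5). Neighbours from AP2B1 to AAGAB overlapped in their libraries, as did AP1G1 and AP2A1, and the other neighbours did not. AP3B2, the beta subunit of AP-3 that is known as the neuronal form, was thus the least abundant of the members per length, far below AP3B1, the ubiquitous beta subunit gene. With miR-34a-WT, AAGAB was at 18.1 ± 0.6 (SD, n = 5), below AP1G1 at 21.5 ± 1.0 (SD, n = 5) on the same scale. The order of these genes depends on the length used, 3.833 kb of merged exons for AAGAB and 10.98 kb for AP1G1. In CPM not divided by length, AP1G1 was above AAGAB in control too, at a mean of 212 against 144.

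AAGAB, the assembly chaperone, was at 152, 137, 144, 144 and 141 CPM in control replicates 1 to 5. It was at 69.5, 73.2, 69.7, 67.3 and 67.3 CPM with miR-34a-WT. With miR-34a-RS it was at 68.5, 74.9, 66.2 and 68.5 CPM in replicates 1, 2, 3 and 5. All 9 microRNA libraries lay below all 5 control libraries and the microRNA groups overlapped throughout. The level was 48.3% of control with miR-34a-WT, a log2 fold change of -1.05 (SE 0.04), and 48.4% with miR-34a-RS, a log2 fold change of -1.05 (SE 0.05).

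Between the microRNAs AAGAB differed by 0.00 on the log2 scale (SE 0.05, 95% interval -0.10 to 0.10, adjusted p = 0.995 by edgeR's quasi-likelihood fit, with Benjamini-Hochberg correction across the 18321 genes). The interval leaves room for a difference of up to 0.10 in either direction. The libraries compared here also enter the falls for which AAGAB was picked, so this test is not fully independent of the choice. The AAGAB exons overlap IQCH on the opposite strand by 59 of 3833 bases, and the library kit does not mark strand. IQCH was at 5.29 ± 0.805 CPM in control and 11.4 ± 1.0 CPM with miR-34a-WT (SD, n = 5 each), so that it moved the other way from AAGAB and at a lower level.

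**Figure D1:**
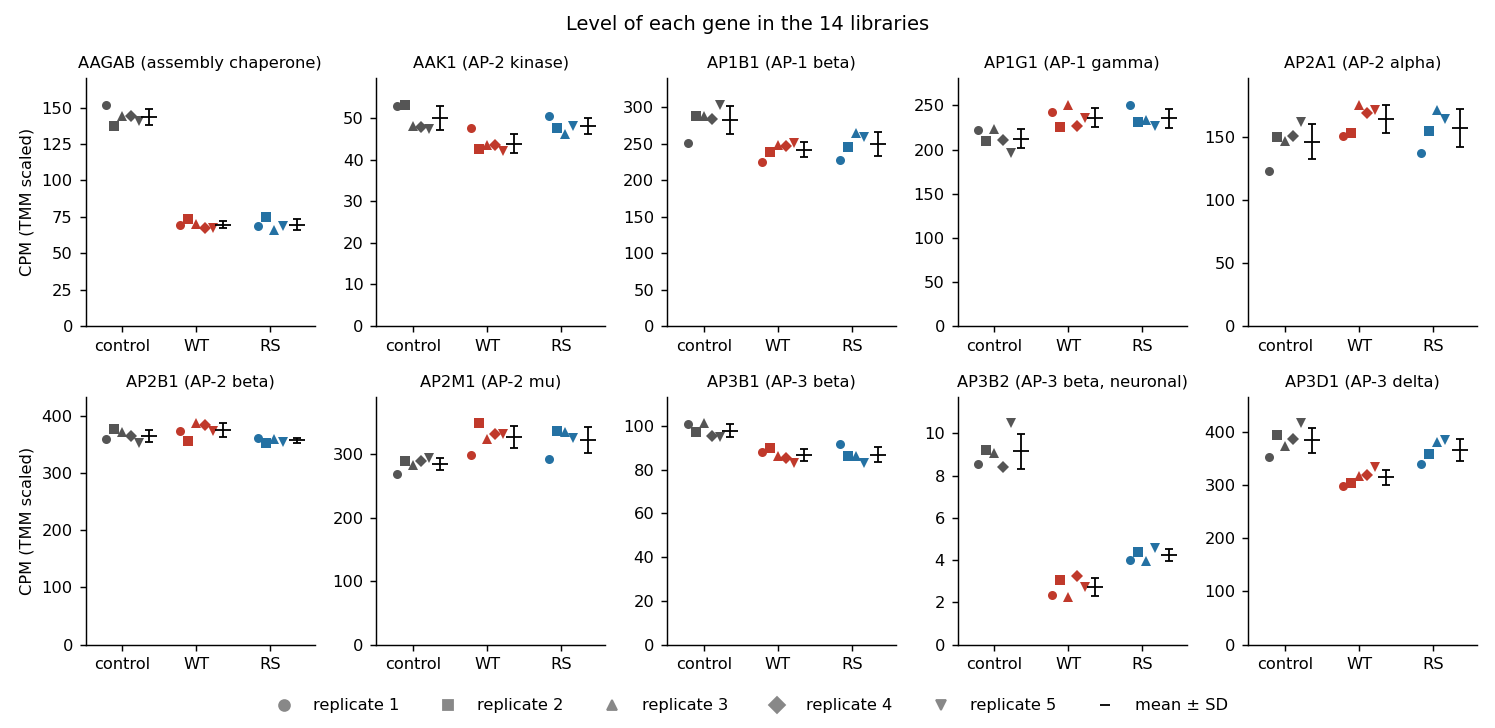
Level of each gene in CPM (TMM scaled, y axes from 0) in the 14 libraries, by group, with the marker shape giving the replicate number and the bar the mean ± SD. AAGAB, AP3B2, AP3B1 and AP1G1 have no microRNA library within the control range, AP3B2 and AP3D1 have every miR-34a-RS library above every miR-34a-WT library, and genes other than AAGAB and AP3B2 shift by a small part of their level.

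AP3B2 was at 8.55, 9.22, 9.06, 8.41 and 10.5 CPM in control replicates 1 to 5. It was at 2.32, 3.07, 2.23, 3.23 and 2.73 CPM with miR-34a-WT. With miR-34a-RS it was at 4.02, 4.40, 3.98 and 4.55 CPM in replicates 1, 2, 3 and 5. The 3 groups did not overlap, and the miR-34a-RS libraries stood between the other groups. The values rest on 233 to 320 reads per control library, 60 to 104 with miR-34a-WT and 133 to 156 with miR-34a-RS. The log2 fold change was -1.74 (SE 0.10) with miR-34a-WT and -1.11 (SE 0.10), a level of 46.5% of control, with miR-34a-RS.

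Between the microRNAs AP3B2 differed by 0.63 on the log2 scale (SE 0.11, 95% interval 0.40 to 0.86, adjusted p = 0.00196 in the edgeR fit), with miR-34a-RS the higher. All 4 miR-34a-RS libraries were above all 5 miR-34a-WT libraries. The miR-34a-WT libraries that enter this test also enter the fall for which AP3B2 was picked, so the difference is not fully independent of the choice. The call held in all 16 other settings, with adjusted p from 1.1e-05 to 0.0115. These settings reuse libraries that entered the choice, so they do not remove this dependence.

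The AP-3 complex held the other member that differed between the microRNAs. AP3D1, which encodes its large delta subunit, was at 352, 393, 373, 387 and 416 CPM in control replicates 1 to 5. It was at 299, 303, 317, 319 and 334 CPM with miR-34a-WT. With miR-34a-RS it was at 339, 358, 382 and 384 CPM in replicates 1, 2, 3 and 5. All miR-34a-WT libraries were below those of both other groups, while miR-34a-RS overlapped control. In log2 terms AP3D1 fell by 0.29 with miR-34a-WT (SE 0.05, adjusted p = 2.19e-05), and with miR-34a-RS its log2 fold change was -0.07 (SE 0.05, 95% interval -0.17 to 0.03, adjusted p = 0.297).

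The difference of AP3D1 between the microRNAs was 0.22 on the log2 scale (SE 0.05, 95% interval 0.11 to 0.32, adjusted p = 0.0221), higher with miR-34a-RS. This call was lost without miR-34a-RS replicate 2, 3 or 5 or miR-34a-WT replicate 1, 2 or 3, each left out alone, with adjusted p up to 0.109. With the replicate number as a block it was kept, at adjusted p = 3.58e-05. AP3D1 had no seed match in the 3′ UTR of the 6 coding transcripts searched and one 6mer in its longest coding sequence. A 7mer-m8 was held by 3 of its 15 annotated transcripts, searched whole, and the region it lies in was not determined.

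AP3B1, whose loss causes Hermansky-Pudlak syndrome, ranged from 94.8 to 101 CPM in control, 83.1 to 89.96 with miR-34a-WT and 83.0 to 91.6 with miR-34a-RS. Neither microRNA group overlapped control. It fell by 0.18 (SE 0.04, adjusted p = 0.00126) and 0.17 (SE 0.04, adjusted p = 0.00323) on the log2 scale, and between the microRNAs the difference was 0.00 (SE 0.04, 95% interval -0.09 to 0.10). The second fall was at adjusted p = 0.0502 with no filter on low counts.

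Of the 8 members not picked for their falls, 4 fell and 3 rose with miR-34a-WT, against 21.3% of all tested genes called lower and 18.9% called higher, 40.2% in all. With miR-34a-RS 2 fell and 2 rose, against 18.4% and 16.2%, 34.6% in all. The median log2 fold change of these 8 was -0.07 and -0.04, and that of all tested genes -0.02 and -0.01. Between the microRNAs 1 of these 8, AP3D1, was called, higher with miR-34a-RS, and 7 were not, against 1.03% of tested genes called higher, 0.535% called lower and 1.56% in all. The 2 comparisons with control share the same 5 control libraries.

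**Figure D2:**
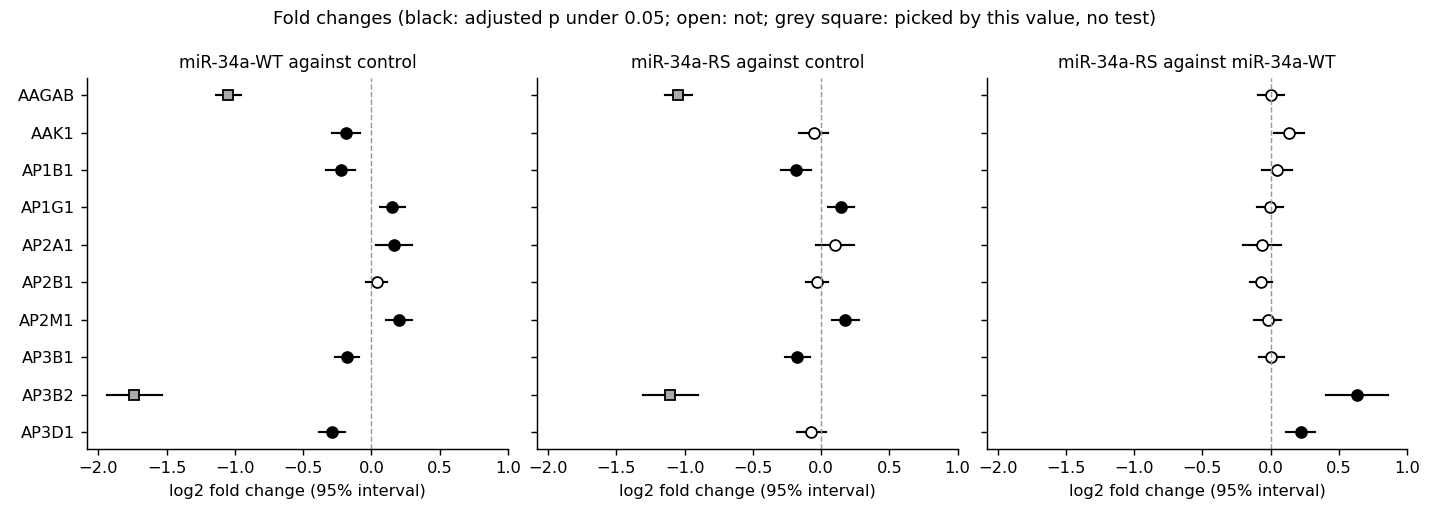
Log2 fold change of each gene in the 3 comparisons, on one common x axis, with 95% intervals from the fit over all 14 libraries, black where the adjusted p is under 0.05 and grey squares for values that picked a gene. AAGAB lies at -1.05 in both comparisons with control and at 0.00 between the microRNAs, while AP3B2 lies at -1.74, -1.11 and 0.63. The duplex libraries compared between the microRNAs also entered the falls that picked these genes.

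Of the AP-1 members, AP1B1, the beta subunit gene with 2 matches in its 3′ UTR, was at 250, 288, 289, 284 and 303 CPM in control replicates 1 to 5. It was at 225, 238, 248, 247 and 251 CPM with miR-34a-WT. With miR-34a-RS it was at 228, 246, 265 and 260 CPM in replicates 1, 2, 3 and 5. The microRNA groups overlapped control only through control replicate 1. AP1B1 fell by 0.23 (SE 0.05, adjusted p = 7.77e-04) with miR-34a-WT and by 0.18 (SE 0.05, adjusted p = 0.0101) with miR-34a-RS on the log2 scale, and the second call was lost without miR-34a-RS replicate 1 (adjusted p = 0.0709). The difference between the microRNAs was 0.04 (SE 0.05, 95% interval -0.07 to 0.16).

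AP1G1, the gamma adaptin gene whose product AAGAB binds, moved the other way. It ranged from 196 to 224 CPM in control, 226 to 251 with miR-34a-WT and 227 to 250 with miR-34a-RS, and neither microRNA group overlapped control. It rose by 0.15 (SE 0.04, adjusted p = 0.00774) and 0.15 (SE 0.05, adjusted p = 0.0173) on the log2 scale, the second call being lost without control replicate 5 (adjusted p = 0.054). Its coding sequence holds the 8mer printed above.

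Of the AP-2 members, AP2M1, the mu subunit gene, was at 268, 289, 283, 289 and 294 CPM in control replicates 1 to 5. It was at 300, 349, 325, 331 and 332 CPM with miR-34a-WT. With miR-34a-RS it was at 292, 336, 334 and 326 CPM in replicates 1, 2, 3 and 5. All miR-34a-WT libraries were above control, and only replicate 1 of miR-34a-RS fell within its range. AP2M1 rose by 0.20 (SE 0.05, adjusted p = 0.00102) and 0.18 (SE 0.05, adjusted p = 0.00578) on the log2 scale.

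AP2A1, the gene of an alpha adaptin that AAGAB also binds, was at 124, 150, 147, 151 and 162 CPM in control replicates 1 to 5 and at 151, 154, 176, 170 and 172 CPM with miR-34a-WT. Its rise with miR-34a-WT was 0.17 on the log2 scale (SE 0.07, adjusted p = 0.0453), and the call was lost without control replicate 1, 3 or 4 or miR-34a-WT replicate 3, 4 or 5, each left out alone, with adjusted p up to 0.135. With the replicate number as a block this AP2A1 call was kept, at adjusted p = 1.93e-04. With miR-34a-RS its log2 fold change was 0.10 (SE 0.07, adjusted p = 0.27), and 0.18 without miR-34a-RS replicate 1 (adjusted p = 0.0468), which made it a call. Its exons overlap FUZ on the opposite strand by 245 of 8746 bases, and FUZ was at 35.0 ± 4.7 CPM in control and 43.3 ± 3.3 CPM with miR-34a-WT (SD, n = 5 each), so its value is uncertain. The part of FUZ in it was not tested.

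AP2B1, the beta subunit gene of AP-2, ranged from 352 to 377 CPM in control, 355 to 386 with miR-34a-WT and 352 to 362 with miR-34a-RS. The groups overlapped, with log2 fold changes of 0.04 (95% interval -0.04 to 0.12) and -0.03 (95% interval -0.11 to 0.05) against control. Of windows of 50 bases in its transcript 7.37% also occur in other genes, mostly the pseudogene AP2B1P1, and the AP2B1 value is uncertain to that extent. AP2B1P1 itself was low in all groups. It was at 0.350 ± 0.133 CPM in control, 0.337 ± 0.120 with miR-34a-WT (SD, n = 5 each) and 0.345 ± 0.122 with miR-34a-RS (SD, n = 4). The part of the shared windows in the AP2B1 value was not tested. AP1B1 shared 3.33% of such windows with an unnamed gene on the same strand and AP2A1 0.185% with AP2A2, while the other 7 members shared none.

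AAK1, the kinase that phosphorylates the mu subunit of AP-2 and so favours cargo binding, was at 52.9, 53.1, 48.1, 47.9 and 47.4 CPM in control replicates 1 to 5. It was at 47.6, 42.6, 43.4, 43.6 and 42.0 CPM with miR-34a-WT. With miR-34a-RS it was at 50.5, 47.5, 46.2 and 48.2 CPM in replicates 1, 2, 3 and 5. The miR-34a-WT libraries were the lowest apart from its replicate 1, which overlapped both other groups. In log2 terms AAK1 fell by 0.19 with miR-34a-WT (SE 0.05, adjusted p = 0.00318) and gave -0.05 (SE 0.05, adjusted p = 0.451) with miR-34a-RS. The difference between the microRNAs, 0.13 (SE 0.05, 95% interval 0.03 to 0.24), did not pass adjustment over all genes (adjusted p = 0.253).

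Set among genes with the same kind of match, AAGAB and AP1B1 stood far apart although each has an 8mer in its 3′ UTR. The median log2 fold change of the 820 tested genes with such a match was -0.22 for the unmodified and -0.20 for the abasic duplex against control, and that of the 8828 genes with no match 0.03 in both. AP1B1 lay at this median. AAGAB was among the 43 and 35 lowest of the 820. AP3B2 belonged to the 614 genes with an 8mer in the coding sequence and no match in the 3′ UTR, whose medians were -0.10 and -0.06. It was the lowest of the 614 with miR-34a-WT and the fourth lowest with miR-34a-RS. As both genes were picked for their falls, these places are a description.

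**Figure D3:**
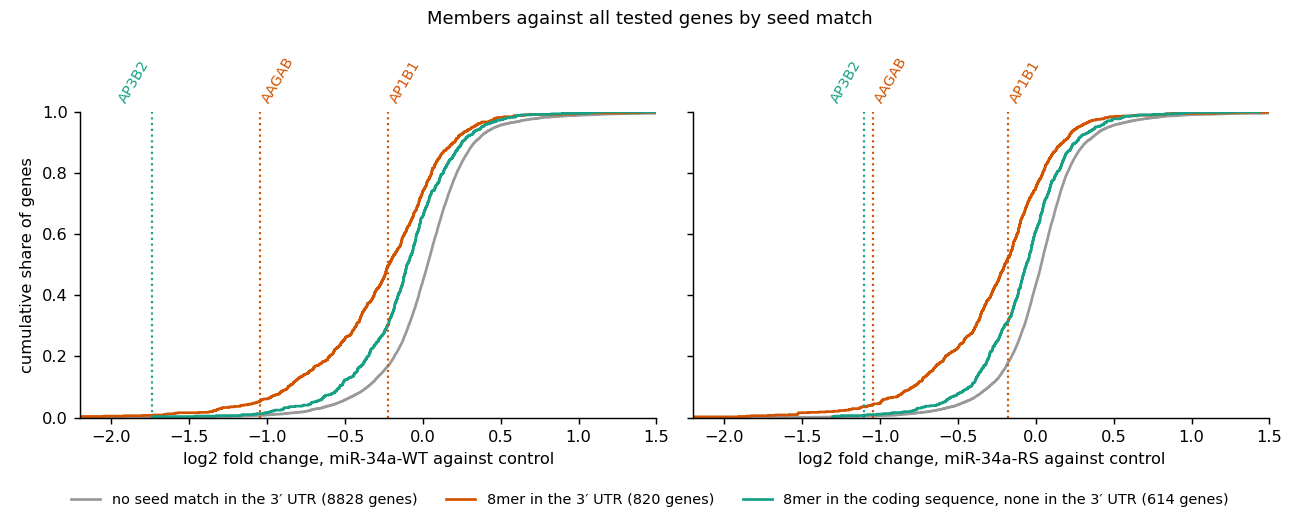
Cumulative share of tested genes (y axis) by log2 fold change against control (x axis) in one panel per duplex, for genes with no seed match in the 3′ UTR (8828), with an 8mer there (820), and with an 8mer in the coding sequence and none in the 3′ UTR (614, also part of the first set). Dotted lines mark AP3B2, AAGAB and AP1B1, with AP1B1 near the middle of the 8mer curve and the other genes at its low end.

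The genes with the pattern most like AAGAB over the 14 libraries, among 11259 tested genes with a mean of at least 5 CPM, were METAP1 (Pearson r = 0.996), PPP1R11 (r = 0.995) and RDH11 (r = 0.995) on the log2 CPM scale. METAP1, a methionine aminopeptidase gene, had log2 fold changes of -0.91 (SE 0.04) with miR-34a-WT and -0.90 (SE 0.05) with miR-34a-RS. RDH11, a retinol dehydrogenase gene, had -1.49 (SE 0.05) and -1.48 (SE 0.05), and PPP1R11, a phosphatase inhibitor gene, -1.92 (SE 0.05) and -1.86 (SE 0.05). Those most like AP3B2 were PARP1 (r = 0.993), RIMS4 (r = 0.989) and FBH1 (r = 0.988). RIMS4, which encodes a protein of the synaptic active zone, had -1.16 (SE 0.05) and -0.78 (SE 0.05), and PARP1 the same order at a smaller size, -0.19 (SE 0.03) and -0.13 (SE 0.04). FBH1, a DNA helicase gene, had -0.48 (SE 0.04) and -0.31 (SE 0.04). The points of each correlation share libraries and groups, and the values are a description.

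Of the 5 adaptor complexes AP-1 to AP-5, 27 of 28 subunit genes were tested, the members included, and AP1M2 was not. With miR-34a-WT 12 fell and 10 rose, where 21.3% and 18.9% of all tested genes were called lower and higher, and with miR-34a-RS 9 fell and 7 rose, where the shares were 18.4% and 16.2%. These shares, which are not matched for level, hold for the lists that follow too. The 7 subunit genes of AP-3 gave 5 falls and 2 rises with miR-34a-WT and 4 falls with no rise with miR-34a-RS. The 5 of AP-2 gave 1 fall and 3 rises, then 1 and 2, and the 7 tested of AP-1 gave 3 falls and 3 rises in both comparisons. AP-4, with 4 genes, gave no fall and 2 rises in both comparisons, and AP-5, also with 4, gave 3 falls, then 1 fall, and no rise. The falls in all complexes and in AP-3 include AP3B2, which was picked for them.

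Among the 19 tested adaptor subunits that are no members, 8 fell and 7 rose with miR-34a-WT and 6 fell and 5 rose with miR-34a-RS, with medians of -0.10 and -0.06. AP2S1, the small sigma subunit gene of AP-2, fell from 115 ± 2.3 CPM to 90.8 ± 3.5 CPM with miR-34a-WT (SD, n = 5 each; log2 fold change -0.34, SE 0.04, adjusted p = 8.05e-07) and by 0.27 (SE 0.05) with miR-34a-RS. AP1S3, a sigma subunit gene of AP-1, rose in log2 terms by 0.48 (SE 0.06) with the one duplex and 0.38 (SE 0.07) with the other. The AP-4 genes AP4M1 and AP4E1 rose by 0.43 (SE 0.07) and 0.24 (SE 0.05) with miR-34a-WT and by 0.48 (SE 0.08) and 0.18 (SE 0.05) with miR-34a-RS.

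**Figure D4:**
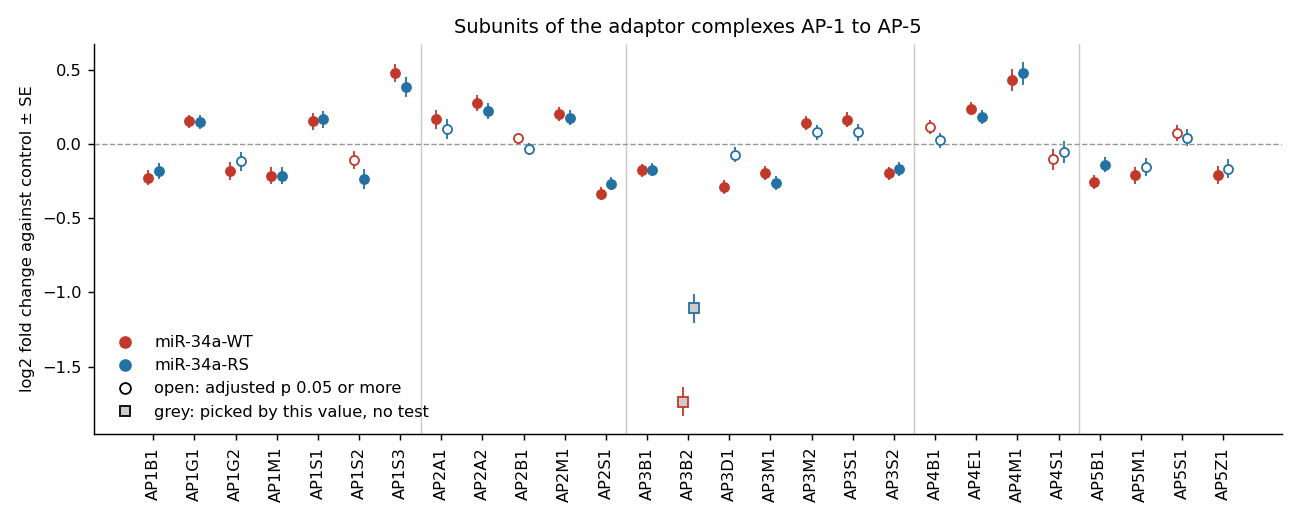
Log2 fold change against control ± SE for the 27 tested subunits of AP-1 to AP-5, with miR-34a-WT in red and miR-34a-RS in blue, open where the adjusted p is 0.05 or more and grey squares for AP3B2, picked by this value. AP3B2 is the one subunit past a fall of 1 on this scale, at -1.74 and -1.11, and the others lie between -0.34 and 0.48.

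In the list of adaptor assembly factors and kinases related to AAK1, 4 of 7 genes rose with miR-34a-WT and 5 of 7 with miR-34a-RS, and the others did not pass the test, against 18.9% and 16.2% of all tested genes called higher. CCDC32, which acts with AAGAB in AP-2 assembly, rose from 9.82 ± 0.31 CPM to 11.8 ± 0.6 CPM with miR-34a-WT (SD, n = 5 each; log2 fold change 0.26, SE 0.06, adjusted p = 0.00104) and by 0.32 (SE 0.06) with miR-34a-RS. NECAP1 and NECAP2, which encode proteins that bind AP-2 and clathrin-coated vesicles, rose by 0.26 (SE 0.04) and 0.19 (SE 0.05) with miR-34a-WT and by 0.20 (SE 0.04) and 0.26 (SE 0.05) with miR-34a-RS. STK16, a kinase gene of the same family as AAK1, rose by 0.23 (SE 0.05) with miR-34a-RS and gave 0.10 (SE 0.05, adjusted p = 0.085) with miR-34a-WT, a value that DESeq2 called (adjusted p = 0.0427). The median of the list was 0.19 and 0.23 in the 2 comparisons.

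In the list of clathrin, accessory and uncoating genes 12 of 43 tested genes fell and 9 rose with miR-34a-WT, 10 fell and 10 rose with miR-34a-RS, and the medians were -0.01 and -0.03. SH3GL1, which encodes the membrane-bending protein endophilin A2, was at 137 ± 12.1 CPM in control, 49.5 ± 2.0 CPM with miR-34a-WT (SD, n = 5 each) and 78.4 ± 5.9 CPM with miR-34a-RS (SD, n = 4). Its difference between the microRNAs was 0.66 (SE 0.06, adjusted p = 3.52e-07), close in size to that of AP3B2. HIP1, which links clathrin to actin, fell by 0.46 (SE 0.05) and 0.35 (SE 0.05), STON2, which encodes an endocytic adaptor of synaptotagmin, by 0.34 (SE 0.06) and 0.48 (SE 0.06), while the dynamin gene DNM3 rose by 0.50 (SE 0.07) and 0.35 (SE 0.07), all as log2 values.

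In the list of AP-3 partners and BLOC complexes, which make lysosome-related organelles, 1 of 17 genes fell and 3 rose with miR-34a-WT, and 2 fell and 4 rose with miR-34a-RS. AGFG1 rose by 0.27 (SE 0.05) and 0.16 (SE 0.05), and HPS3, of the BLOC-2 complex, by 0.22 (SE 0.05) and 0.21 (SE 0.05). BLOC1S6, of BLOC-1, rose by 0.20 (SE 0.05) with miR-34a-RS and gave 0.09 (SE 0.05) with miR-34a-WT. HPS6, also of BLOC-2, fell by 0.24 (SE 0.06, adjusted p = 0.00176) with miR-34a-WT. Its level with miR-34a-RS exceeded that by 0.24 (SE 0.06, adjusted p = 0.0498), a call lost in 10 of 16 other settings, among them without each miR-34a-WT library.

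Among 15 genes of cargo receptors and transporters that adaptors carry, 3 fell and 5 rose with miR-34a-WT, and 4 fell and 3 rose with miR-34a-RS. SLC30A3, the vesicular zinc transporter gene whose product AP-3 sorts in neurons, fell from 10.5 ± 0.95 CPM to 5.26 ± 0.27 CPM with miR-34a-WT (SD, n = 5 each; log2 fold change -0.99, SE 0.08, adjusted p = 7.93e-11) and by 0.81 (SE 0.08) with miR-34a-RS. SORL1, a sorting receptor gene, fell by 0.56 (SE 0.06) and 0.68 (SE 0.06). M6PR, the gene of a mannose 6-phosphate receptor, rose by 0.29 (SE 0.04) and 0.18 (SE 0.04), and LRP8 rose by 0.24 (SE 0.05) with miR-34a-WT and gave 0.13 (SE 0.05, adjusted p = 0.0581) with miR-34a-RS. The second value was called in 6 of 16 other settings, among them without control replicate 2, without miR-34a-RS replicate 1 and with DESeq2, with adjusted p from 0.0254 to 0.156 over the 16.

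In the list of ARF and coat recruitment genes 6 of 11 fell and 3 rose with miR-34a-WT, and 3 fell and 1 rose with miR-34a-RS. PIP5K1A, which makes the phosphoinositide that AP-2 binds, fell from 235 ± 6.6 CPM to 150 ± 4.2 CPM with miR-34a-WT (SD, n = 5 each; log2 fold change -0.65, SE 0.04, adjusted p = 9.76e-13) and by 0.74 (SE 0.04) with miR-34a-RS. PIP5K1C, another gene of this enzyme family, fell by 0.40 (SE 0.07) and 0.22 (SE 0.07), the second call being lost without control replicate 2, 3, 4 or 5 or miR-34a-RS replicate 1 or 2, with adjusted p up to 0.121. The GTPase genes ARF3 and ARF5 fell by 0.26 (SE 0.05) and 0.20 (SE 0.05) with miR-34a-WT and gave -0.08 (SE 0.05, adjusted p = 0.219) and -0.11 (SE 0.05, adjusted p = 0.108) with miR-34a-RS. For ARF5 the second value was -0.14 without miR-34a-RS replicate 2, a call (adjusted p = 0.0465), and -0.04 without miR-34a-RS replicate 1 (adjusted p = 0.537).

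Replicate 1 was the lowest library in all 3 groups for 4 members, AP1B1, AP2A1, AP2M1 and AP3D1. The labels do not say what a replicate number marks. For AAGAB the lowest library was replicate 2 in control, replicate 5 in the miR-34a-WT group and replicate 3 in the miR-34a-RS group, and its spread within a group was small beside the distance between groups.

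**Figure D5:**
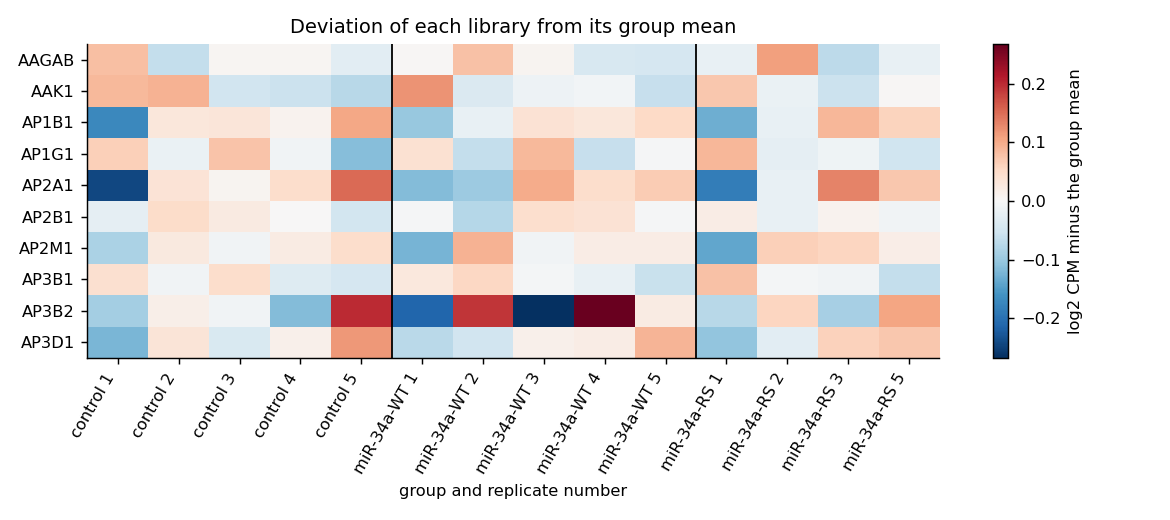
Deviation of each library from its group mean in log2 CPM (colour) for the 10 genes (rows) in the 14 libraries (columns, by group and replicate number). Replicate 1 is blue, that is low, in all 3 groups for AP1B1, AP2A1, AP2M1 and AP3D1, and AP3B2, with the fewest reads, has the largest deviations.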

How the data were processed

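Polyadenylated RNA was sequenced in 14 libraries (TruSeq RNA v2 chemistry, per the labels' protocols). The authors deposited whole-number read counts per gene, with no sign of scaling or pooling in the values and totals of 22242203 to 36255297. The submitters' processing notes name STAR 2.7.11a, featureCounts of Subread 2.0.3, edgeR 3.42.4 and GRCh38. The annotation release and strand setting are not given in the sources used here. Of 63140 gene identifiers 62541 matched a symbol table.

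Counts were fitted with edgeR 4.0.16 in R 4.3.3 (TMM, filterByExpr by group, robust glmQLFit, then glmQLFTest), with 1 mean for each of 3 groups of the 14 libraries, and p-values were adjusted by Benjamini-Hochberg over 18321 genes, with a threshold of 0.05. Every adjusted p given is from this test unless said otherwise. Pattern correlations used log2 CPM with a prior count of 2. Alternatives were DESeq2 1.42.0 as a test, its size factors and upper-quartile factors in edgeR, no filter, no robust dispersion, only the groups compared, a replicate block and each library left out. Tested on simulated counts of 18321 genes for the contrast of the 2 duplexes, the fit recovered 92% of genes changed by 1.25 times. It recovered 100% at 1.5 times and called 10 unchanged genes. The simulated counts had the same spread for every gene and no shared replicate effect, and changes were put only in genes above a minimum level. These shares may therefore not hold for the real libraries.

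No replicate pair agreed within sampling noise (chi-square per degree of freedom 2.72 to 14.3 over 26 pairs). Same-numbered libraries of the 2 duplexes deviated together (r 0.40 to 0.78 over 9901 genes, 4 of 4 best with their own number), so the numbers pair them. Between miR-34a-WT and control, same-numbered libraries had r of -0.20 to 0.60 (mean 0.32, other pairs -0.08), 3 of 5 best with their own number. Between miR-34a-RS and control they had r of -0.06 to 0.52 (mean 0.27, other pairs -0.07), 2 of 4 best. The comparisons with control thus also hold a part that goes with the replicate number. The fit that printed p-values come from, unless said otherwise, has no block, and the blocked fit is an alternative.

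The members and lists were chosen with earlier results of these data known. Named genes are the 10 members, up to 4 genes of each list with the smallest adjusted p in any comparison, and the 3 genes most like AAGAB and AP3B2. IQCH, FUZ and AP2B1P1 were named for their overlap in sequence. The lists hold 20 adaptor subunits, 7 assembly genes and kinases, 44 clathrin genes, 17 AP-3 partners, 15 cargo genes and 11 ARF genes. GENCODE 29 holds 99.71% of the counts by identifier.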

Additional observations from a re-analysis of the deposited data

Results flagged for a closer look

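Differences between the microRNAs that passed the test (edgeR quasi-likelihood, adjusted p under 0.05) are the effect of one duplex against control set beside that of the other. They were 0.63 for AP3B2, 0.22 for AP3D1, 0.66 for SH3GL1 and 0.24 for HPS6 on the log2 scale, higher with miR-34a-RS. The libraries of miR-34a-WT also enter the fall for which AP3B2 was picked. RIMS4 differed by 0.38, but it was named for its likeness to AP3B2, so its value and direction are a description.

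A library stood far from the others of its group in 7 of 120 groups of libraries over 40 genes, and chance gives about 1 in 20. Control replicate 1 was lowest for SH3GL1 at 116 CPM (nearest 141), for HPS6 at 21.9 CPM (nearest 25.8) and for PIP5K1C at 46.5 CPM (nearest 57.0). MiR-34a-WT replicate 1 was lowest for ARF5 at 80.3 CPM (nearest 86.7), and miR-34a-WT replicate 3 was highest for AGFG1 at 154 CPM (nearest 140). MiR-34a-RS replicate 1 was highest for STON2 at 22.8 CPM (nearest 20.1) and for BLOC1S6 at 81.3 CPM (nearest 69.2). No value of the 10 members was so placed.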

How the results depend on the processing

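Between the microRNAs 2 members were called, where 1.56% of all tested genes were. With a library left out 1 to 2 were called, AP3D1 being the call lost, while AP3B2 was picked for its fall. Same-numbered libraries paired the 2 duplexes, and the replicate block there also gave 2. Among named genes the block added PIP5K1C (adjusted p = 0.274 without and 0.00215 with the block) and ARF3 (0.0718 and 5.67e-04). FBH1 also passed only with the block, but it was named for its likeness to AP3B2, so its value is a description. No other call between the microRNAs changed. In the comparisons with control, where same-numbered libraries did not deviate together throughout, the block added AP2A1 (adjusted p = 0.0165), LRP8 (0.0254) and ARF5 (0.0300) with miR-34a-RS, and STK16 (0.0410) and BLOC1S6 (0.0434) with miR-34a-WT. Of alternative values of member genes 15 lost a call, in AP1B1, AP1G1, AP2A1, AP3B1 and AP3D1, and 2 gained one, both in AP2A1, and no called value turned. AP3B2 rests on 60 reads in its thinnest library, and its differences have the widest intervals of the members.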
